A study of Homo sapiens with 12 samples.

Results

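Nucleotide excision repair was followed through 10 genes, XPA, XPC, DDB2, ERCC1, ERCC2, ERCC3, ERCC4, ERCC5, ERCC6 and ERCC8, taken by symbol from the 26334 genes listed in each library's count table. Nucleotide excision repair removes bulky lesions from DNA, among them the intrastrand crosslinks that Cisplatin leaves between neighbouring bases. A lesion is found either anywhere in the genome, by XPC and the DDB1-DDB2 damaged-DNA binding complex, or where it stalls RNA polymerase II, by the Cockayne syndrome proteins encoded by ERCC6 and ERCC8. Both routes lead to TFIIH, whose helicases are encoded by ERCC2 and ERCC3, to the scaffold XPA, and to the nucleases ERCC1-ERCC4 and ERCC5, which cut out the damaged strand before it is resynthesised. Inherited defects in these genes cause xeroderma pigmentosum, Cockayne syndrome and trichothiodystrophy. RNF113A, the gene targeted here, encodes a subunit of the spliceosome that carries a RING domain.

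The RNA came from A549 cells, an established human lung adenocarcinoma line, infected with lentivirus and selected with puromycin at 1 µg/ml for 4 days. The 4 groups held 3 libraries each: shControl untreated, shControl with Cisplatin, shRNF113A untreated and shRNF113A with Cisplatin, where shControl is a hairpin against no target and Cisplatin was given at 25 µg/ml for 20 h. This dose and its unit are those of the sample descriptions, whereas the paper's methods give 25 µM for 20 h in its cell death assay. The study describes the libraries as biological replicates. Each library held between 33859097 and 56071514 read pairs. The share of pairs assigned to no gene was 21.84 to 22.59% in the shRNF113A libraries with Cisplatin and 13.98 to 18.87% in the other 9.

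The targeted gene was checked first. RNF113A stood at 20.3, 19.5 and 19.8 CPM (a gene's read count relative to the TMM-scaled size of its library) in untreated shControl cells and at 15.3, 15.8 and 16.8 CPM in untreated shRNF113A cells, which did not overlap (0.805-fold, log2 fold change −0.31 ± 0.09 SE, adjusted p = 0.0247, edgeR). With Cisplatin the values were 31.5, 28.9 and 27.7 CPM against 25.8, 24.3 and 29.9 CPM, and these groups overlapped (log2 −0.14 ± 0.09, adjusted p = 0.233, edgeR). The targeted mRNA was thus lower by a small margin in untreated cells and not detectably so in treated ones, and protein was not measured in these files. The paper examined RNF113A protein by western blot in A549 cells with hairpins against it, and calls those cells depleted. The mRNA values alone do not give the extent of depletion of the protein. Of the markers of the cell type, KRT7, KRT8 and KRT18, keratins of simple epithelium, lay between 1110 and 7450 CPM. All 5 epithelial markers were lower with Cisplatin, 3 of them at least 2-fold (KRT8 0.461-fold, KRT18 0.351-fold and CDH1, the adhesion molecule E-cadherin, 0.340-fold over both hairpins, edgeR). Of all genes tested, 32.1% were lower and 11.2% were lower at least 2-fold (adjusted p under 0.05, over both hairpins, edgeR). CDH1 was also lower with shRNF113A, at 91.1 to 129 against 137 to 197 CPM untreated and 32.1 to 50.2 against 47.9 to 55.1 CPM treated (0.737-fold, adjusted p = 0.00967, edgeR). Of genes of other cell types, the leukocyte and endothelial genes PTPRC and PECAM1 had at most 5 and 12 counts in a library. EPCAM, an epithelial adhesion molecule, was at 3.66 to 18.4 CPM in shControl and 40.5 to 97.6 CPM in shRNF113A libraries, and COL1A1, a fibroblast collagen gene, was at 5.86 to 34.9 and 3.32 to 6.29 CPM. The part of these marker differences in the results was not tested.

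Of the 10 genes, Cisplatin raised XPC, DDB2 and ERCC6 most. Across both hairpins, 7 of the 10 genes were higher with Cisplatin, 1 was lower and 2 did not pass the test (adjusted p under 0.05 in an additive model of drug and hairpin, edgeR). In the same fit, 34.8% of the 15352 genes tested were higher and 32.1% were lower. XPC, DDB2 and ERCC6 rose at least 2-fold, as did 10.3% of all genes. The median log2 fold change of the 10 genes was 0.36, and that of all genes was 0.03. Since the libraries are bulk RNA, fewer expressing cells and less RNA per cell cannot be told apart.

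XPC binds the undamaged strand opposite a lesion and starts global genome repair. Its gene lies on the minus strand at chr3:14186647-14220283 (hg19) and had 16 exons in the reference transcript. Untreated shControl cells held 54.2, 52.6 and 51.2 CPM of XPC. With Cisplatin the shControl libraries rose to 211, 223 and 223 CPM. Every treated library was above every untreated one, with no overlap. In shRNF113A cells XPC stood at 56.6, 58.3 and 54.5 CPM untreated and at 195, 189 and 214 CPM with Cisplatin. The rise was 4.16-fold in shControl cells (log2 2.06 ± 0.07, adjusted p = 1.02e-09) and 3.53-fold in shRNF113A cells (log2 1.82 ± 0.07, adjusted p = 3.49e-09; both edgeR). The difference between these 2 rises, −0.24 ± 0.09 on the log2 scale, did not pass the interaction test (adjusted p = 0.168, edgeR).

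DDB2 recognises distorted DNA together with DDB1 and hands the lesion on to XPC. The gene lies on the plus strand at chr11:47236016-47260768 (hg19). DDB2 stood at 99.3, 86.3 and 98.3 CPM in untreated shControl cells and at 333, 396 and 347 CPM with Cisplatin. Untreated shRNF113A cells held 82.8, 81.4 and 87.2 CPM, and treated ones 236, 236 and 226 CPM. The treated shRNF113A libraries were above all untreated libraries and below all treated shControl libraries. Cisplatin raised DDB2 3.79-fold in shControl cells (log2 1.92 ± 0.08, adjusted p = 4.16e-09) and 2.78-fold in shRNF113A cells (log2 1.47 ± 0.08, adjusted p = 3.24e-08; both edgeR). Within Cisplatin-treated cells DDB2 was 0.648-fold the shControl level (log2 −0.63 ± 0.08, adjusted p = 0.000127, edgeR), and this call held in all 18 alternatives that gave DDB2 a value.

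DDB2 was the 1 gene of the 10 whose Cisplatin response passed the test of a difference between hairpins (interaction log2 −0.45 ± 0.11, adjusted p = 0.0469, edgeR), as did 2.27% of all genes in the same direction. The call was close to the threshold and held in 7 of 18 alternatives. With the replicate block its adjusted p was 0.062, and it passed in 3 of the 12 fits that left out 1 library, where the adjusted p ranged up to 0.116.

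A pair of genes well known to respond to DNA damage was read beside XPC and DDB2. MDM2, which encodes a ubiquitin ligase, rose 10.9-fold with Cisplatin in shControl cells and 5.05-fold in shRNF113A cells (interaction log2 −1.11 ± 0.14, adjusted p = 0.00626, edgeR). CDKN1A, the cell cycle inhibitor p21, rose 20.7-fold and 8.73-fold (interaction log2 −1.25 ± 0.22, adjusted p = 0.0134, edgeR).

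**Figure D1:**
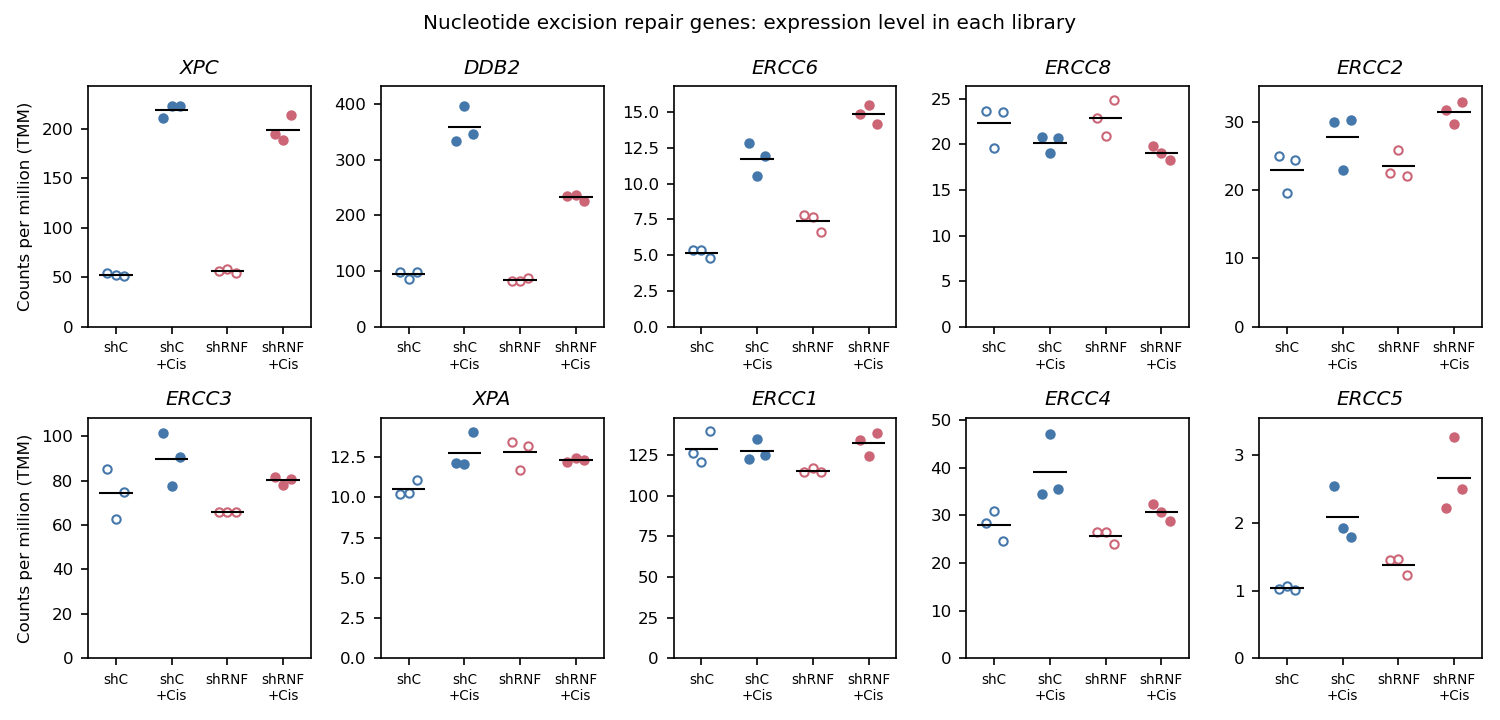
Expression of each of the 10 genes (vertical axis: TMM-scaled CPM, linear, from 0) in each of the 12 libraries, by group (horizontal axis: shC is shControl, shRNF is shRNF113A, +Cis is with Cisplatin; open circles untreated, filled circles Cisplatin, black lines group means of 3). XPC and DDB2 stand apart with Cisplatin, and treated shRNF113A libraries hold 226 to 236 CPM of DDB2 against 333 to 396 CPM in treated shControl libraries.

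The transcription-coupled pair moved apart. ERCC6 encodes CSB, the ATPase that first meets a stalled polymerase, and lies on the minus strand at chr10:50663414-50747584 (hg19), where it shares its strand with the fusion gene ERCC6-PGBD3 and with PGBD3. Its levels were 5.36, 5.35 and 4.83 CPM in untreated shControl cells and 12.8, 10.5 and 11.9 CPM with Cisplatin. In shRNF113A cells they were 7.84, 7.69 and 6.61 CPM untreated and 14.9, 15.5 and 14.2 CPM with Cisplatin. The 4 groups did not overlap. Cisplatin raised ERCC6 2.27-fold in shControl cells (log2 1.18 ± 0.11, adjusted p = 3.12e-06) and 2.01-fold in shRNF113A cells (log2 1.01 ± 0.11, adjusted p = 9.32e-06; both edgeR). ERCC6 was also higher with shRNF113A, 1.43-fold in untreated cells (adjusted p = 0.00619, edgeR) and 1.26-fold in treated cells (adjusted p = 0.0267, edgeR). The first of these held in all 19 alternatives and the second in 14 of 19. Reads shared with the overlapping genes are not counted, so the ERCC6 level is that of its own part of the locus.

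ERCC8 encodes CSA, the substrate receptor that joins CSB at the polymerase, and lies on the minus strand at chr5:60169658-60240900 (hg19). Its levels were 23.7, 19.6 and 23.6 CPM in untreated and 20.8, 19.03 and 20.7 CPM in treated shControl cells. In shRNF113A cells they were 22.9, 20.9 and 24.8 CPM untreated and 19.8, 19.01 and 18.3 CPM treated. Groups overlapped in shControl but not in shRNF113A cells. ERCC8 was the single gene of the 10 that fell with Cisplatin, 0.868-fold over both hairpins (log2 −0.20 ± 0.07, adjusted p = 0.0226, edgeR), and without TMM scaling the call was lost (log2 −0.11, adjusted p = 0.176). It was also lost without shRNF113A replicate 3, untreated (log2 −0.17, adjusted p = 0.0584) or treated (log2 −0.18, adjusted p = 0.0506).

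The TFIIH helicase genes rose by smaller amounts. ERCC2, which encodes XPD, opens DNA from the 5′ side of the lesion and lies on the minus strand at chr19:45853095-45874176 (hg19). ERCC2 read 24.9, 19.5 and 24.3 CPM in untreated and 29.9, 23.0 and 30.2 CPM in treated shControl cells, which overlapped. It read 22.6, 25.9 and 22.1 CPM in untreated and 31.8, 29.6 and 32.9 CPM in treated shRNF113A cells, which did not overlap. Over both hairpins it rose 1.27-fold (log2 0.35 ± 0.09, adjusted p = 0.00386, edgeR).
ERCC3 encodes XPB, the translocase of TFIIH, and lies on the minus strand at chr2:128014866-128051752 (hg19). It read 85.4, 62.8 and 74.9 CPM in untreated and 101, 77.6 and 90.4 CPM in treated shControl cells. The values in shRNF113A cells were 66.0, 65.8 and 65.7 CPM untreated and 81.6, 78.1 and 80.6 CPM treated. The shControl libraries spread widely, and among them replicate 2 was the lowest both untreated and treated. ERCC3 rose 1.21-fold over both hairpins (log2 0.28 ± 0.08, adjusted p = 0.0061, edgeR). Both helicase genes passed the additive test in all 19 alternatives. In shControl cells alone neither passed (adjusted p = 0.0811 for ERCC2 and 0.0549 for ERCC3, edgeR), whereas in a fit of the control libraries alone with the replicate number as a block both passed (adjusted p = 0.0214 and 0.00969, edgeR). Within shRNF113A cells ERCC2 passed at log2 0.42 (adjusted p = 0.0119, edgeR), in 18 of 19 alternatives. ERCC3 passed there at log2 0.28 (adjusted p = 0.0431, edgeR), in 6 of 19 alternatives, next to log2 0.27 in shControl cells. The difference between hairpins did not pass for either gene (adjusted p = 0.694 and 0.979, edgeR).

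XPA, the scaffold that checks the lesion and gathers the other factors, differed little. The gene lies on the minus strand at chr9:100437191-100459639 (hg19). XPA levels were 10.2, 10.3 and 11.1 CPM in untreated and 12.1, 12.1 and 14.1 CPM in treated shControl cells. In shRNF113A cells they were 13.5, 11.7 and 13.2 CPM untreated and 12.2, 12.5 and 12.3 CPM treated. Untreated shControl libraries were the lowest of the 4 groups and did not overlap the others. The rise with Cisplatin in shControl cells was 1.21-fold (log2 0.28 ± 0.10, adjusted p = 0.0308, edgeR). That call held in 14 of 21 alternatives and was lost without treated replicate 3 (adjusted p = 0.112), untreated replicate 1 (0.0872) or untreated replicate 2 (0.0654). It was also lost in the fit of the control libraries alone with the replicate number as a block (log2 0.27, adjusted p = 0.0531), and HTSeq exonic counts gave log2 0.17 (adjusted p = 0.171). Over both hairpins the change was log2 0.11 ± 0.09 (adjusted p = 0.265, edgeR), and the difference between hairpins was −0.33 ± 0.14 (adjusted p = 0.192, edgeR).

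The 3 incision genes did not share a pattern. ERCC1, the partner that anchors the 5′ nuclease, lies on the minus strand at chr19:45910591-45982086 (hg19), opposite CD3EAP and FOSB. It was among the most abundant of the 10, at 126, 121 and 140 CPM in untreated and 123, 135 and 125 CPM in treated shControl cells. It stood at 115, 117 and 114 CPM in untreated and 134, 124 and 139 CPM in treated shRNF113A cells. The shControl groups overlapped and the shRNF113A groups did not. Within shRNF113A cells Cisplatin raised ERCC1 1.15-fold (log2 0.20 ± 0.07, adjusted p = 0.0334, edgeR), which passed in 6 of 19 alternatives. Between hairpins, over both treatments, ERCC1 did not pass (log2 −0.05, adjusted p = 0.499, edgeR).
ERCC4 encodes XPF, the nuclease that cuts on the 5′ side, and lies on the plus strand at chr16:14014014-14046202 (hg19). Its levels were 28.5, 31.0 and 24.7 CPM in untreated and 34.6, 47.0 and 35.7 CPM in treated shControl cells. In shRNF113A cells they were 26.5, 26.5 and 24.0 CPM untreated and 32.3, 30.8 and 28.8 CPM treated. Treated shControl replicate 2 stood above the other 11 libraries. Cisplatin raised ERCC4 1.39-fold in shControl cells (log2 0.48 ± 0.12, adjusted p = 0.00527, edgeR). Over both hairpins ERCC4 rose by log2 0.37 (adjusted p = 0.00276, edgeR). In shRNF113A cells alone the rise did not pass (log2 0.26, adjusted p = 0.0906, edgeR). The difference between hairpins did not pass either (adjusted p = 0.503, edgeR). In treated cells ERCC4 was 0.784-fold with shRNF113A (log2 −0.35 ± 0.12, adjusted p = 0.0355, edgeR), and without treated shControl replicate 2 this became log2 −0.24 (adjusted p = 0.0757).

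ERCC5 encodes XPG, the nuclease that cuts on the 3′ side, and lies on the plus strand at chr13:103497194-103528345 (hg19) inside the readthrough gene BIVM-ERCC5. Reads that both genes could own were not counted, so ERCC5 had 37 to 106 counts per library and BIVM-ERCC5 had 0. The ERCC5 level was 1.02, 1.07 and 1.01 CPM in untreated and 2.55, 1.92 and 1.79 CPM in treated shControl cells. It was 1.46, 1.47 and 1.23 CPM in untreated and 2.23, 3.28 and 2.51 CPM in treated shRNF113A cells. Treated libraries were above untreated ones in both arms. The rise was 2.01-fold in shControl cells (log2 1.01 ± 0.21, adjusted p = 0.00144) and 1.93-fold in shRNF113A cells (log2 0.94 ± 0.21, adjusted p = 0.00178; both edgeR). The exonic counts of HTSeq gave ERCC5 237 to 703 reads per library, and there the shRNF113A difference passed in untreated (log2 0.51, adjusted p = 0.0226) and treated cells (log2 0.42, adjusted p = 0.0348), where the main counts gave adjusted p = 0.166 and 0.168.

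By hairpin, the changes were small in size. Over both treatments ERCC6 and ERCC5 were higher and DDB2 and ERCC4 lower with shRNF113A. These were 4 of 10 genes, where 23.5% of all genes were higher and 24% lower, 47.5% in all. None of the 10 reached 2-fold. DDB2 was 0.757-fold (log2 −0.40 ± 0.08, adjusted p = 0.00181) and ERCC6 1.34-fold (log2 0.42 ± 0.09, adjusted p = 0.00143; both edgeR), and both held in every alternative with a value. ERCC5 (log2 0.39, adjusted p = 0.0452) passed in 7 of 19 alternatives and ERCC4 (log2 −0.24, adjusted p = 0.0436) in 10 of 19. In untreated cells only ERCC6 passed, upwards, where 12.8% of all genes were higher and 14.6% lower. In treated cells ERCC6 was higher (21.1% of all genes) and DDB2 and ERCC4 were lower (21.8%).

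By hairpin arm, Cisplatin raised 6 of the 10 genes in shControl cells and lowered none, where 28% of all genes were higher, and 4 rose at least 2-fold (XPC, DDB2, ERCC6 and ERCC5), where 9.16% of all genes did. In shRNF113A cells it raised 7 and lowered 1, where 32.4% of all genes were higher and 27.8% lower, and XPC, DDB2 and ERCC6 rose at least 2-fold, where 11.6% of all genes did. Of the 7 raised in shRNF113A cells, ERCC3 and ERCC1 each passed in 6 of 19 alternatives. The 2 arms have separate libraries, and only for DDB2 did the difference between them pass.

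**Figure D2:**
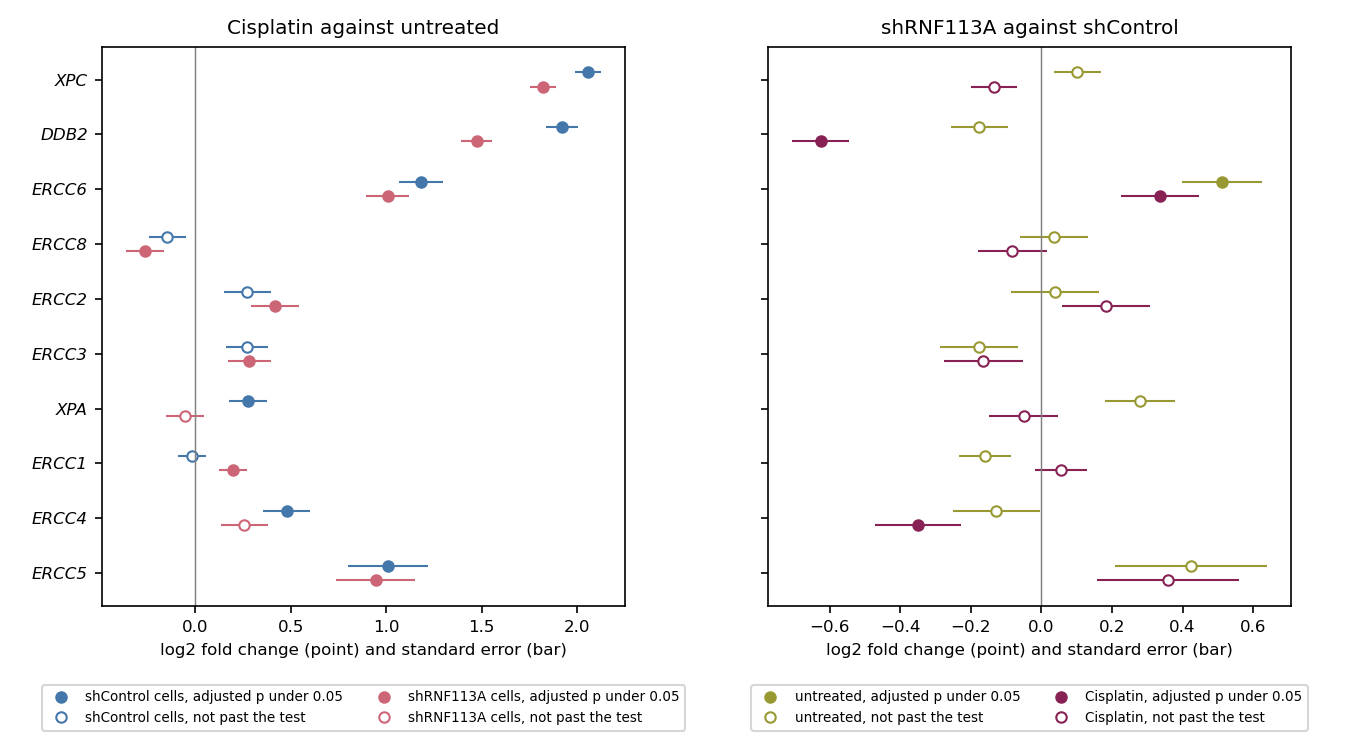
Log2 fold changes of the 10 genes (horizontal axis, points with standard error bars from edgeR) for Cisplatin against untreated in each hairpin (left) and for shRNF113A against shControl in each treatment (right). Filled points passed an adjusted p of 0.05; DDB2 shows −0.63 in treated and −0.18 in untreated cells for shRNF113A.

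Compared per length of exon, the 9 genes with HTSeq exonic counts covered a wide range of levels. In untreated shControl cells ERCC1 (25.9 ± 1.65 SD reads per kilobase of exon, scaled to RPKM by the exonic reads of the library, n = 3) and ERCC3 (25.5 ± 2.86) were highest and did not differ beyond their spread. XPC followed at 12.9 ± 0.669, ERCC8 at 9.61 ± 0.582, XPA at 6.86 ± 0.383 and ERCC2 at 5.62 ± 0.672. ERCC4 stood at 3.43 ± 0.505, ERCC5 at 1.03 ± 0.0636 and ERCC6 at 0.619 ± 0.055. The neighbours XPA and ERCC2 lay 6.43 to 7.17 and 4.84 to 6.06, close but not overlapping. With Cisplatin XPC reached 57.0 ± 2.49 in shControl and 51.0 ± 2.76 in shRNF113A cells, the highest of the 9 in both. ERCC6 rose to 1.53 ± 0.108 and 1.95 ± 0.114 and stayed the lowest of the 9. Both ERCC5 and ERCC6 overlap other genes on their own strand. Reads shared with those genes are not counted, while the full exon length was used. The values of ERCC5 and ERCC6, and their low ranks, can therefore understate their level. DDB2 was not analysed on this scale.

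The gene with the most alike profile is given for 9 of the 10, by Pearson correlation of log2 CPM over the 12 libraries among 9779 genes of at least 10 CPM. The libraries fall into 4 groups, so a high value mostly restates the group means, and the values are descriptions. XPC was most like ZFYVE1 (r = 0.999). ERCC6 was nearest to OFD1 (r = 0.989), a protein of the centriole, and ERCC8 to NOP58 (r = 0.963), a core protein of box C/D snoRNPs. ERCC2 paired with ZNF142 (0.985), ERCC3 with CYP4F11 (0.985), ERCC4 with RAB3GAP2 (0.956) and ERCC5 with VPS11 (0.954). For XPA (DPCD, 0.910) and ERCC1 (XRCC3, 0.897) the nearest profile was less alike.

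Among the other genes of the pathway, more fell than rose with Cisplatin. A list of 43 further genes covered the partners of the sensors, TFIIH subunits, RPA, and the factors that fill and seal the gap, and all 43 were tested. With Cisplatin, over both hairpins, 10 were higher and 20 were lower, where 34.8% of all genes were higher and 32.1% lower. Their median change was −0.13 on the log2 scale. By role, 4 of 8 TFIIH genes were higher and 2 lower, 3 of 7 transcription-coupled genes were higher and 3 lower, and 1 of 7 recognition genes was higher and 3 were lower. All 3 RPA genes, which coat the undamaged strand, were lower. Of 18 genes of resynthesis and ligation, 2 were higher and 9 lower.

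The largest rises among those of at least 10 CPM were those of XAB2, an XPA-binding protein that also works in the spliceosome (1.56-fold, log2 0.65 ± 0.08, adjusted p = 4.86e-06), PCNA, the sliding clamp (1.46-fold, log2 0.54 ± 0.10, adjusted p = 0.000234), and GTF2H3, a TFIIH subunit (1.29-fold, adjusted p = 0.000141; all edgeR). XAB2 ranged from 35.0 to 37.9 CPM in untreated and 50.3 to 54.2 CPM in treated shControl cells, and from 43.3 to 50.2 and 67.2 to 88.4 CPM in shRNF113A cells. The largest falls were those of POLE2, a subunit of DNA polymerase epsilon (0.508-fold, log2 −0.98 ± 0.09, adjusted p = 4.02e-07), RFC4, a clamp loader subunit (0.529-fold, adjusted p = 7.02e-08), and MNAT1, which assembles the kinase of TFIIH (0.561-fold, adjusted p = 8.89e-07; all edgeR). POLE2 ranged from 26.3 to 38.7 CPM in untreated and 17.4 to 18.1 CPM in treated shControl cells. None of the 43 reached 2-fold in either direction in this fit, and in shRNF113A cells alone POLE2 did (0.488-fold).

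With shRNF113A, over both treatments, 6 of the 43 were higher and 12 lower, where 23.5% of all genes were higher and 24% lower. XAB2 (1.36-fold, adjusted p = 0.000388), POLE, the catalytic subunit of polymerase epsilon (1.31-fold, adjusted p = 0.00081), and UVSSA, a partner of the stalled polymerase (1.25-fold, adjusted p = 0.011), rose most (all edgeR). RFC3, a clamp loader subunit (0.607-fold, adjusted p = 2.5e-05), TCEA1, the elongation factor TFIIS (0.703-fold, adjusted p = 0.0017), and MNAT1 (0.706-fold, adjusted p = 0.000285) fell most (all edgeR). The response to Cisplatin differed between hairpins for TCEA1 and XRCC1, a scaffold of the ligation step, both downwards (log2 −0.57 and −0.42, adjusted p = 0.0453 and 0.0422, edgeR).

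**Figure D3:**
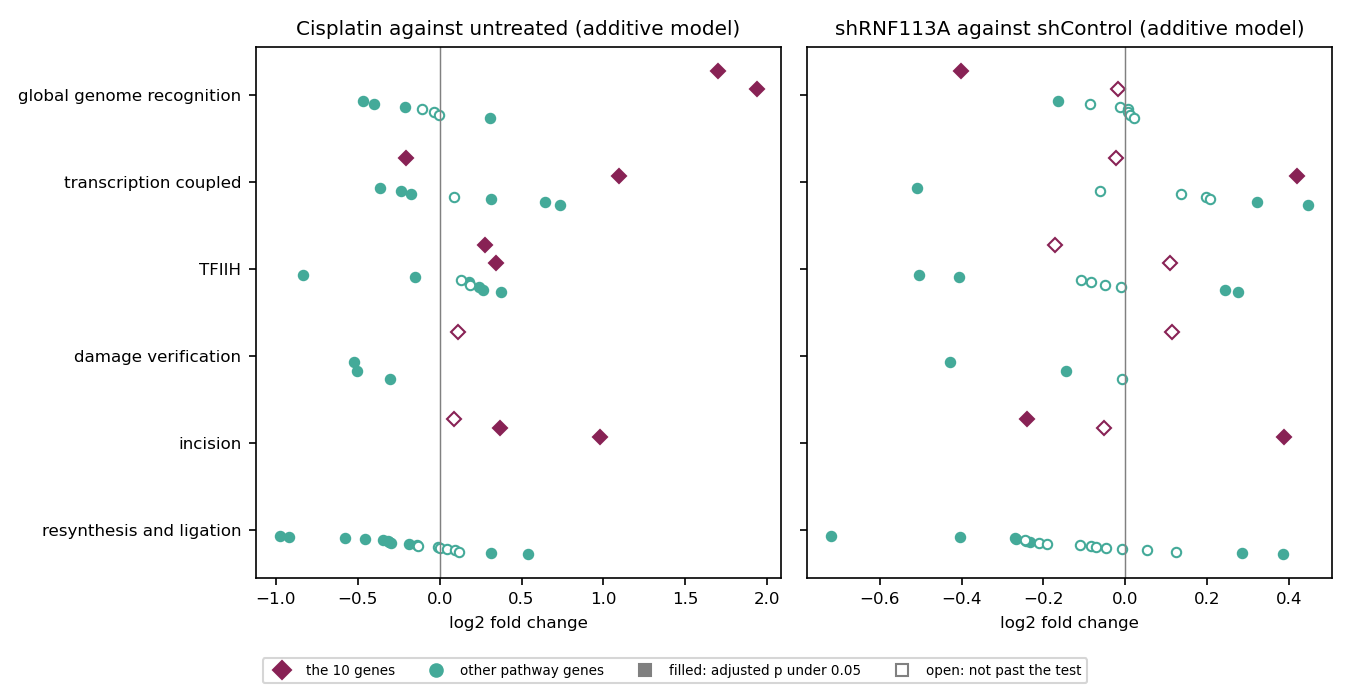
Log2 fold change (horizontal axis) of the 10 genes (diamonds) and of 43 further pathway genes (circles) by role (vertical axis), for Cisplatin (left) and shRNF113A (right) in the additive model; filled symbols passed an adjusted p of 0.05. With Cisplatin the diamonds of global genome recognition lie at 1.70 and 1.94, and the circles of resynthesis and ligation lie between −0.98 and 0.54.

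Since RNF113A belongs to the spliceosome, reads in introns were compared with reads in exons. Intronic reads were the difference between the reads counted over a gene and those counted strictly inside its exons, and the log2 change of the intronic to exonic ratio was tested with a term for each library (edgeR). DDB2 was not analysed here, and ERCC5 was left out because its reads over the gene were fewer than those in its exons, which left 8 genes. In treated cells the ratio was higher with shRNF113A in 8 of 8, as it was in 82.7% of the 11345 genes tested. The median change was log2 0.97 both for the 8 genes and for all genes.

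XPC held 281, 258 and 343 intronic reads in untreated and 1153, 1263 and 2302 in treated shControl cells, next to 1906, 2006 and 1843 and then 7732, 8777 and 9913 exonic reads. As a share of genic reads this was 12.8, 11.4 and 15.7% untreated and 12.98, 12.6 and 18.8% with Cisplatin, so that the shares overlapped while the reads rose. In shRNF113A cells the intronic share was 20.0, 21.6 and 18.8% untreated and 28.6, 29.3 and 28.7% treated. Untreated shRNF113A libraries stood above the untreated shControl ones, and treated shRNF113A libraries stood above all others. The ratio was 2.37-fold higher with shRNF113A in treated cells (log2 1.25 ± 0.19, adjusted p = 1.54e-05) and 1.65-fold in untreated cells (log2 0.72 ± 0.20, adjusted p = 0.0152; both edgeR).

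XPA had 15.5, 12.4 and 11.1% intronic reads in untreated and 23.0, 18.6 and 25.1% in treated shControl cells. In shRNF113A cells it had 23.0, 22.4 and 18.7% untreated and 37.2, 36.1 and 36.7% treated. The untreated shControl libraries were the lowest and the treated shRNF113A libraries the highest. XPA was the 1 gene of the 8 whose ratio rose with Cisplatin in shControl cells (1.92-fold, log2 0.94 ± 0.22, adjusted p = 0.00387, edgeR), as did 17.6% of all genes, and it rose 2.13-fold in shRNF113A cells (adjusted p = 0.000122, edgeR). While the XPA level by counts differed little, its share of intronic reads in treated shRNF113A cells was 36.7 ± 0.571% (SD, n = 3) against 13.01 ± 2.22% in untreated shControl cells.

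ERCC8 had the highest mean intronic share of the 8 in each group. It was 25.0, 25.3 and 21.8% in untreated and 27.6, 26.2 and 31.6% in treated shControl cells, and 25.8, 24.4 and 23.5% in untreated and 36.7, 40.9 and 41.5% in treated shRNF113A cells. Treated libraries were above all untreated ones in both arms, and the treated shRNF113A libraries were the highest. In shControl cells the rise of the ratio did not pass (log2 0.33 ± 0.18, adjusted p = 0.214, edgeR). In shRNF113A cells the ratio rose 2.01-fold with Cisplatin (log2 1.01 ± 0.18, adjusted p = 8.42e-05, edgeR), and the untreated hairpin difference was log2 0.05 ± 0.18 (adjusted p = 0.858, edgeR).

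ERCC2 and ERCC3 had low shares, and ERCC2 rose from 4.7, 5.6 and 6.8% in untreated shControl to 14.0, 14.5 and 12.9% in treated shRNF113A cells. ERCC3 went from 5.8, 5.0 and 7.2% to 12.5, 13.8 and 12.8% between the same groups. The end groups did not overlap for either gene. In treated cells the shRNF113A difference was 2.08-fold for ERCC2 and 2.16-fold for ERCC3 (adjusted p = 0.000187 and 0.000276, edgeR). ERCC1 followed, with 13.9 to 14.7% in treated shRNF113A and 7.4 to 9.4% in treated shControl cells (1.89-fold, adjusted p = 6.2e-05, edgeR).

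ERCC6 and ERCC4 passed in treated cells between hairpins. ERCC6 had 7.4, 8.3 and 11.3% intronic reads in treated shControl and 13.1, 15.5 and 16.6% in treated shRNF113A cells (1.78-fold, adjusted p = 0.002, edgeR), on 39 to 90 intronic reads per treated library. Reads shared with the genes that overlap ERCC6 on its strand are not counted, so this share is that of its own part of the locus. ERCC4 had 20.9, 15.5 and 20.9% against 23.3, 25.1 and 23.6% (1.35-fold, adjusted p = 0.0335, edgeR), a call that was lost without treated shControl replicate 2 (adjusted p = 0.151) and without each treated shRNF113A replicate (0.0601 to 0.106). The change was log2 0.26 in the first case and 0.39 to 0.46 in the others, against 0.44 with all libraries. Neither passed in any other of the comparisons.

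Counted over comparisons, the ratio was higher in 4 of the 8 genes for shRNF113A in untreated cells (28.5% of all genes), in 6 of 8 for Cisplatin in shRNF113A cells (65.4% of all genes) and in 1 of 8 for Cisplatin in shControl cells, and no gene of the 8 was lower in any. The 4 were XPC, ERCC2, ERCC3 and XPA, and the 6 were those 4 with ERCC8 and ERCC1. The calls of the untreated comparison were near the threshold. Without untreated shRNF113A replicate 1 or 2 none of the 4 passed (adjusted p of 0.0508 to 0.125), and without untreated shControl replicate 2 only XPA did. The changes themselves moved little, and without untreated shRNF113A replicate 1 they were log2 0.73 for XPC, 0.82 for ERCC2, 0.74 for ERCC3 and 0.80 for XPA against 0.72, 0.77, 0.66 and 0.87 with all libraries. Over all genes tested, the intronic share per library was 4.34 to 4.82% in untreated shControl, 4.65 to 7.18% in treated shControl, 5.75 to 6.63% in untreated shRNF113A and 9.97 to 10.3% in treated shRNF113A cells. Treated shControl replicate 3 had the highest share of its group, both over all genes and in 7 of the 8 genes, and ERCC4 was tied within rounding.

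**Figure D4:**
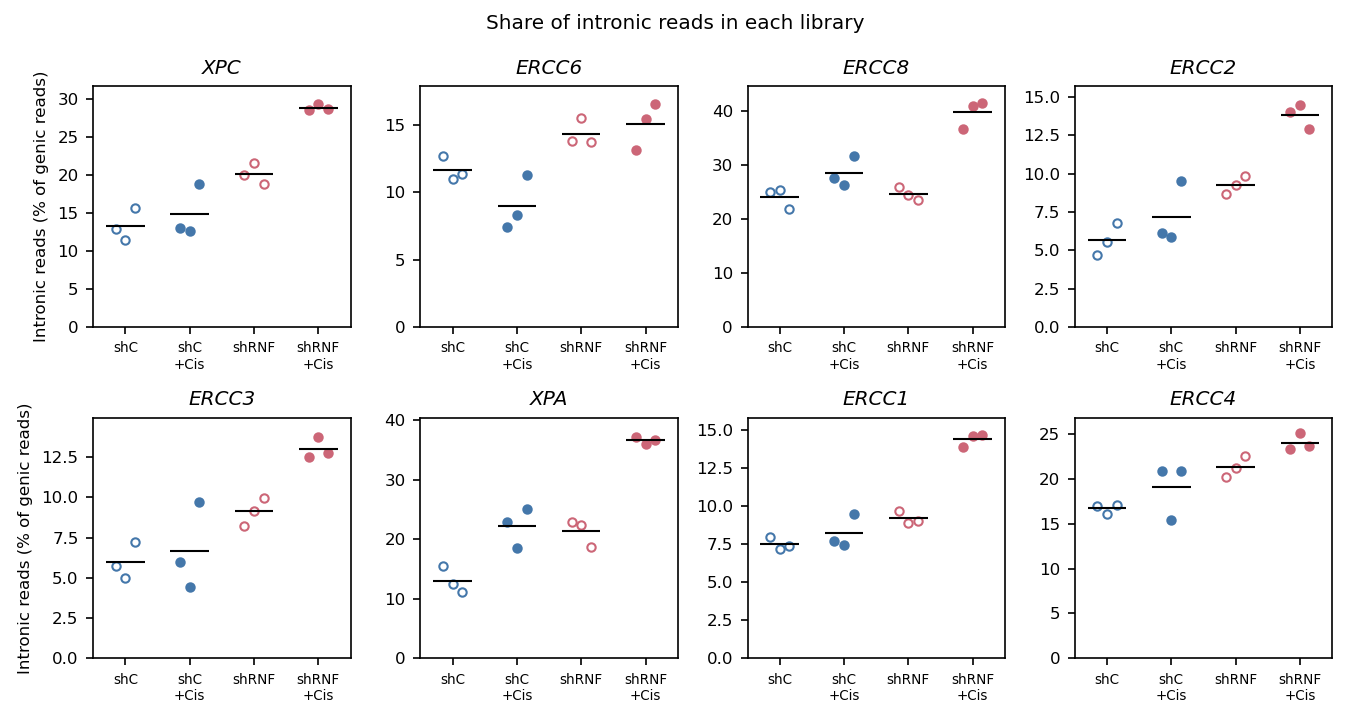
Intronic reads as a percentage of genic reads (vertical axis, linear, from 0) for the 8 genes with a value, in each of the 12 libraries (shC is shControl, shRNF is shRNF113A, +Cis is with Cisplatin; open circles untreated, filled circles Cisplatin, black lines means of 3). The treated shRNF113A libraries have the highest mean for each of the 8, from 12.5 to 13.8% for ERCC3 to 36.7 to 41.5% for ERCC8.

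Annotated splicing events were compared from the reads of the inclusion and skipping forms (skipped exons, mutually exclusive exons, retained introns and alternative 5′ and 3′ sites). Between 94 and 110 events of 9 of the 10 genes could be tested in a comparison, and ERCC5 had no event under its own symbol. Few passed. In shRNF113A cells Cisplatin moved 2 of 110 events, both in DDB2 (2.61% of all events moved). In shControl cells it moved 0 of 94 by edgeR (0.529% of all events). Of these 94, 9 had an unadjusted p under 0.05 by edgeR. The share of all events at that unadjusted threshold was not computed, so the 9 cannot be set against it. With shRNF113A, 1 of 101 events moved in untreated cells, in ERCC1 (0.906% of all events), and 2 of 109 in treated cells, in XPC and ERCC2 (2.32% of all events). The rates differed by category in treated cells, where 921 of 3541 retained introns and 431 of 59768 skipped exons of all genes passed. The ERCC2 event was 1 of 3 retained introns tested in the 10 genes. None of the events of the 10 genes that passed differed by 20 percentage points or more in inclusion level.

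The 3 events that moved with shRNF113A are shown by sequence, since their reads differed between hairpins. The exon or intron concerned is in capitals and 10 bases of its flanks are in lower case. All lie on the minus strand and are written 5′ to 3′ (GRCh37).
XPC exon 4, chr3:14209747-14209890: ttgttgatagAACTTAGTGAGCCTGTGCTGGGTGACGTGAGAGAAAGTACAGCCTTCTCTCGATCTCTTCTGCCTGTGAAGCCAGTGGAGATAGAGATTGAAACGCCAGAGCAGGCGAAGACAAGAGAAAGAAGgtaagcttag
ERCC2 intron 3, chr19:45872241-45872337: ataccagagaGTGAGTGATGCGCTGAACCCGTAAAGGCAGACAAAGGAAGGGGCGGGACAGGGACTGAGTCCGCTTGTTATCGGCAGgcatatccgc
ERCC1 exon 8, chr19:45917211-45917302: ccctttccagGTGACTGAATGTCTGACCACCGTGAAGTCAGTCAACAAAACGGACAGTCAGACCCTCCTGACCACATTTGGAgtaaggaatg
ERCC1 exon 9, chr19:45916925-45917013: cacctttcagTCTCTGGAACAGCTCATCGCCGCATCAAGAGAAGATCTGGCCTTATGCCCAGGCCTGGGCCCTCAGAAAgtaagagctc

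XPC exon 4 is a coding exon of 124 bases, a length that is no multiple of the codon. In treated shControl cells the reads of the inclusion and skipping forms were 1016 and 1, 1022 and 2, and 1187 and 5. In treated shRNF113A cells they were 655 and 10, 716 and 9, and 626 and 15. Skipping reads were thus few in every library and more frequent in all 3 shRNF113A libraries. The inclusion level, which corrects for the length of each form, went from 0.994 to 0.955 (difference −0.0383, adjusted p = 0.0111, edgeR), and the call held in 3 of 8 alternatives.

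ERCC2 intron 3 has 77 bases and lies between coding exons. Its retention had 0, 0 and 1 reads in treated shControl and 6, 3 and 3 reads in treated shRNF113A cells, next to 78, 59 and 108 and then 59, 73 and 45 reads of the spliced form. The groups did not overlap, on very few reads. The level of retention went from 0.0015 to 0.0325 (adjusted p = 0.0118, edgeR; 6 of 8 alternatives).
In ERCC1, exons 8 (72 bases) and 9 (69 bases) are coding and were listed as alternatives to each other. Both belong to the same reference transcript, so reads inside either exon can come from RNA that holds both. The share below is therefore not the fraction of transcripts with exon 8 in place of exon 9. The share of the exon 8 form was 0.512, 0.494 and 0.471 in untreated shControl and 0.571, 0.604 and 0.547 in untreated shRNF113A cells. The difference of 0.0817 had an adjusted p of 0.0494 (edgeR), and it passed in 1 of 8 alternatives.

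Both DDB2 events rest on the same junction, which joins exon 5 to exon 8 and leaves out exons 6 (178 bases) and 7 (143 bases), so they are not separate observations. In shRNF113A cells this junction had 5, 1 and 6 reads untreated and 0, 0 and 0 with Cisplatin. Reads that include exon 6 numbered 569, 534 and 527 and then 1364, 1472 and 1099. The inclusion level of exon 6 went from 0.975 to 1.00 (difference 0.0247, adjusted p = 0.00327) and that of exon 7 from 0.973 to 1.00 (adjusted p = 0.00362; both edgeR), each in 5 of 8 alternatives. The libraries of the splicing tables carry letters that are not tied to the replicate numbers.

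**Figure D5:**
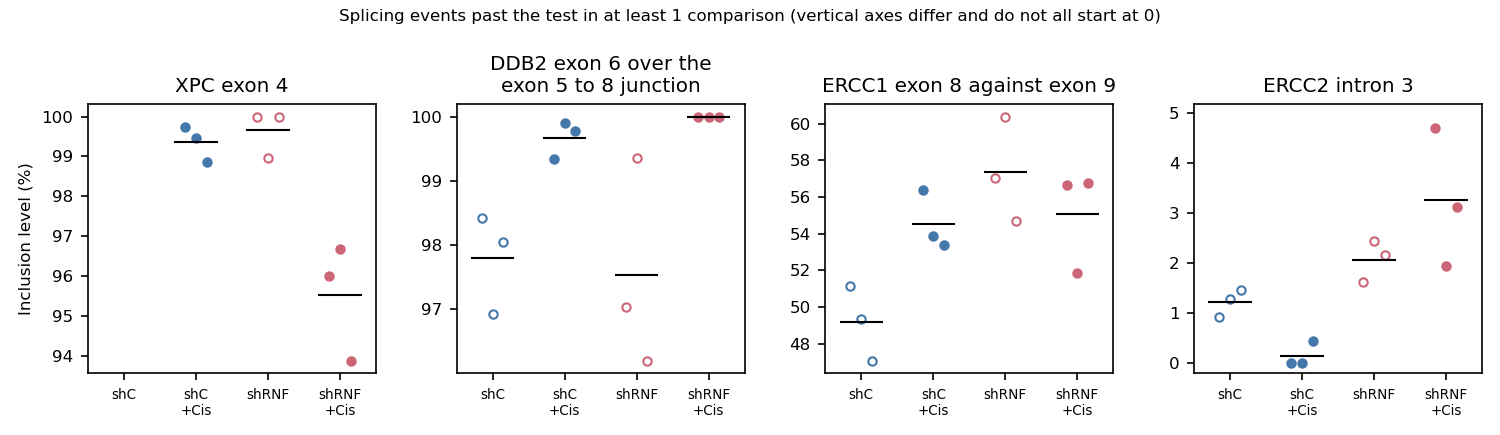
Inclusion level (vertical axes, percent of the inclusion form; the axes differ and do not all start at 0) of XPC exon 4, DDB2 exon 6, ERCC1 exon 8 and ERCC2 intron 3 in each library (shC is shControl, shRNF is shRNF113A, +Cis is with Cisplatin; open circles untreated, filled circles Cisplatin, lines means of 3). The 3 treated shRNF113A libraries are the lowest for XPC exon 4 and all lie at full inclusion for DDB2 exon 6; untreated shControl cells have no listed value for XPC exon 4.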

How the data were processed

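RNA of 12 A549 cultures was sequenced from stranded mRNA libraries. The authors aligned reads with STAR 2.5.2b to hg19 and deposited raw gene counts per library, of which the stranded column was used, and HTSeq counts over exons and over whole genes of Gencode 19 (submitters' processing notes and methods). The deposited splicing tables list read counts of the inclusion and skipping forms. Their columns of p-values, differences and other comparisons by the authors were not used. Counts between 33859097 and 56071514 read pairs per library set the precision.

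Counts were filtered with filterByExpr, scaled by TMM and tested with edgeR 4.0.16 (quasi-likelihood, Benjamini-Hochberg over all genes, two-sided): an additive model of drug and hairpin, and a model with their interaction for the single comparisons. Intronic reads were genic minus exonic counts, tested against exonic counts with library terms. Splicing events needed 10 reads in every library. An event or gene passed at an adjusted p under 0.05. Genes of the wider list were named by the 3 largest rises and falls of at least 10 CPM. The scripts were tested on simulated data.

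The members and gene lists were chosen with earlier results of these data known. Alternatives were DESeq2 1.42.0, other scaling, filters, unstranded and HTSeq counts, a replicate block and leaving out each library; fits of the control libraries alone were added after the data were seen. Replicate numbers are not stated to mark shared cultures. Deviations of equally numbered libraries correlated at 0.48 to 0.73 between the shControl groups, −0.06 to 0.41 between the shRNF113A groups and −0.20 to 0.23 between groups of different hairpins. Only the first were taken as pairs, from the values alone, in the fit of the control libraries alone. The alternative called the replicate block instead used the replicate number over all libraries of both hairpins. A gene on the fixed lists, and the results that need it, are not reported here.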

Additional observations from a re-analysis of the deposited data

Results flagged for a closer look

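The response to Cisplatin differed between hairpins for DDB2, by −0.45 on the log2 scale (shRNF113A minus shControl, adjusted p = 0.0469, interaction test of edgeR), with a rise in 3 of 3 treated libraries of both arms. The same test gave −1.11 for MDM2 (adjusted p = 0.00626) and −1.25 for CDKN1A (adjusted p = 0.0134). All 3 were flagged because this difference passed an adjusted p of 0.05 in the interaction test. For DDB2 that call held in 7 of 18 alternatives. Groups of 3 libraries were too small for a test of single outlying libraries.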

How the results depend on the processing

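Counts of the 10 genes past the test moved by over 1.5 times in some settings. For the interaction the count fell from 1 to 0 in most settings, since its 1 call, DDB2, held in 7 of 18 alternatives. The 1 splicing event for the hairpin in untreated cells was lost in every fit that left out 1 library. With HTSeq exonic counts, 2 genes passed for the hairpin (4 in the reported fit), 0 for the interaction (1), 4 for Cisplatin in shRNF113A cells (8) and 2 for the hairpin in untreated cells (1); DDB2 had no value there. Without a filter on low counts, 0 passed for the interaction and 5 for Cisplatin in shRNF113A cells. Library size in place of TMM gave 2 for the hairpin in untreated cells, and moved the median Cisplatin change of all genes from log2 0.03 to 0.12. The replicate block gave 0 for the interaction. A minimum of 20 reads gave 0 splicing events for the hairpin in untreated cells (1). Leaving out 1 library gave 7 to 8 genes for Cisplatin, 5 to 8 in shControl and 5 to 8 in shRNF113A cells, 2 to 4 for the hairpin, 1 to 3 in untreated and 2 to 4 in treated cells, and 0 to 1 for the interaction. For the intronic ratio it gave 1 to 1, 5 to 6, 0 to 6 and 7 to 8 genes (Cisplatin in shControl, in shRNF113A, hairpin in untreated, in treated cells), and for splicing 0 to 0, 0 to 2, 0 to 0 and 0 to 2 events. The cause of these shifts was not tested. No result changed its direction past the test. Low reads limit ERCC5, ERCC6 introns and the splicing events.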
